A study of Saccharomyces cerevisiae W303 with 86 samples.

Results

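The RNA-binding protein Puf3 was removed from yeast that already lacked a part of the ATP synthase, and the mRNA of the doubly deleted strain was set against that of the strain with the ATP7 deletion alone. The comparison holds the 6 mRNA libraries of the series' 86 libraries whose labels give the genotypes atp7 puf3 and atp7 in the set in which PUF3 was deleted, 3 biological replicates per genotype. The atp7 puf3 cells lacked both ATP7 and PUF3, the atp7 cells lacked ATP7 only, and both groups thus shared the ATP7 deletion. All were Saccharomyces cerevisiae W303-1A, a haploid laboratory strain of mating type a. They were grown without further treatment in synthetic complete medium with 2% glucose and harvested in mid-log phase at an optical density of 0.5 to 0.8. RNA was selected for poly(A) tails before sequencing. The same set has libraries of rho0 puf3 and rho0 cells, which lack mitochondrial DNA, and of puf3 and wild-type (WT) cells with intact ATP7, 3 libraries each. These 12 serve here to show where the atp7 background differs. How many independent clones stand behind each genotype is not given in the sources used here.

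Puf3 is a Pumilio-family protein that binds the ends of many mRNAs encoding mitochondrial proteins, above all those of the mitochondrial ribosome and of the assembly of the respiratory chain. In glucose it is known for speeding up the decay of such mRNAs, COX17 being the classical example, and its role switches with carbon source and phosphorylation, so that it can also favour their translation. ATP7 encodes a subunit of the stalk of the mitochondrial ATP synthase, without which yeast cannot respire but can live by fermentation. The question was what PUF3 deletion does to gene expression in cells with these different states of the mitochondrion.

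The deleted genes matched the labels. PUF3 (YLL013C, chromosome XII, 122075 to 124714, build R64) had 0.147, 0.0325 and 0.0327 RPKM (read numbers scaled to gene length and library total, the authors' unit) in the atp7 puf3 libraries, against 57.3, 65.8 and 57.3 RPKM in the atp7 libraries. ATP7 (YKL016C, chromosome XI, 407465 to 407989) was listed at 0 in all 6 libraries. Depth was similar throughout, with 11589795 to 14318919 reads per library recovered from the RPKM values of these 6. The 7 mating type a genes summed to 2168 to 2441 RPKM in atp7 puf3 and 2466 to 2602 RPKM in atp7 libraries. The 4 mating type alpha genes summed to 30.2 to 34.0 RPKM in atp7 puf3 and 31.7 to 34.1 RPKM in atp7 libraries, both as in a strain of mating type a. None of these 11 genes was called, nor was any of 11 haploid and 10 sporulation genes. With only these 6 libraries in the fit, MFA1 and FAR1 were called lower in atp7 puf3, at -0.25 and -0.18 on the log2 scale. In bulk RNA, fewer cells carrying a transcript and less of it per cell cannot be told apart.

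In the atp7 deletion, loss of PUF3 lowered many mRNAs for mitochondrial gene expression. Of 6812 genes tested, limma called 152 at a Benjamini-Hochberg adjusted p under 0.05, which is 2.23% of them, and 490 had an unadjusted p under 0.05. Among the called genes, 140 were lower in atp7 puf3 than in atp7 (2.06% of all genes tested) and 12 were higher (0.176%). The 3 libraries of one genotype lay wholly above or below the 3 of the other for all called genes, but also for 1842 (27%) of all genes tested. Besides PUF3 itself, 139 genes fell, with a median log2 change of -0.45 and a range of -0.86 to -0.16. Of these 139, 85 were on the gene lists used here, and all 85 were on lists of mitochondrial genes. The lists were written with earlier results of these data known, so this count carries no weight of its own. The count depends on which libraries give the estimate of the spread. With only the 6 libraries compared, 549 of 6665 genes tested were called (8.24%), 236 higher (3.54%) and 313 lower (4.7%). The median SD within a group was 0.0575 in atp7 puf3 and 0.0529 in atp7 libraries on the log2 scale, against 0.087 in rho0 puf3, 0.123 in rho0, 0.0987 in puf3 and 0.129 in WT libraries. Leaving out each of the 6 libraries in turn, 112 of the 140 lower genes kept their call in every fit.

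**Figure D1:**
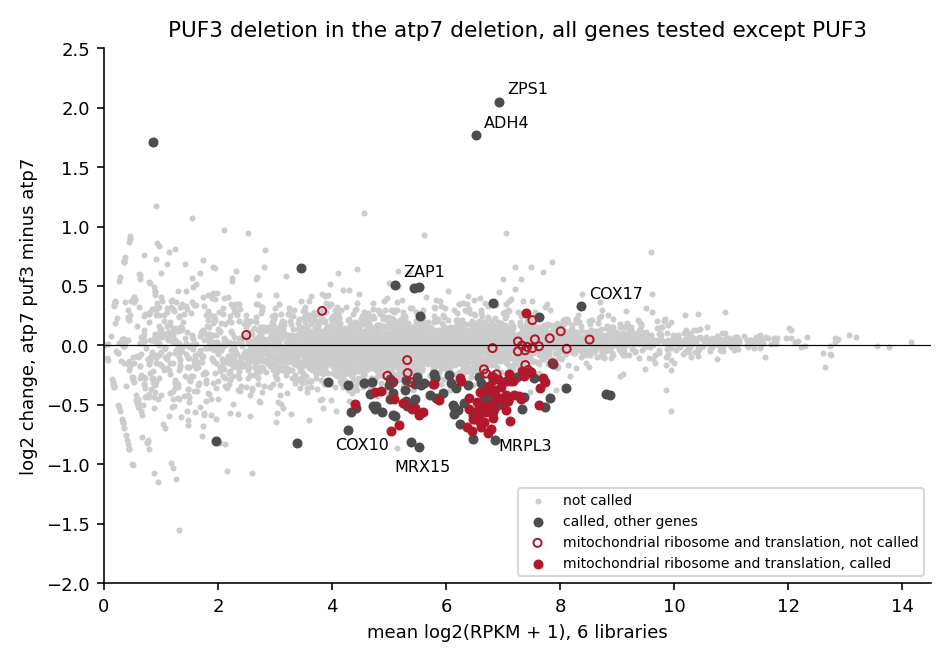
Log2 change (atp7 puf3 minus atp7) against the mean log2(RPKM + 1) of the 6 libraries for each gene tested except PUF3; grey points were not called, dark points were called, and red points are the 98 genes of the mitochondrial ribosome and translation lists, filled where called. Most filled red points lie between about -0.2 and -0.75, and the 2 highest points are ZPS1 at 2.05 and ADH4 at 1.77.

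Genes for the large subunit of the mitochondrial ribosome, which synthesises the few proteins encoded by mitochondrial DNA, fell in 29 of 44 cases (65.9%) and rose in 1. Over all genes tested, 2.06% were called lower. The median log2 change of the list was -0.37, where the median over all genes tested was 0.00. MRPL3 (YMR024W, chromosome XIII, 321875 to 323047) had 84.7, 82.5 and 84.7 RPKM in atp7 puf3, against 143.7, 142.2 and 143.3 RPKM in atp7 libraries. The groups lay far apart, and the fall was 0.73 on the log2 scale (SE 0.05, adjusted p = 2.0e-07). MRP20 (YDR405W) had 66.3, 68.9 and 73.2 RPKM in atp7 puf3 libraries, against 116.6, 117.2 and 118.0 RPKM in atp7 libraries, a change of -0.72 (SE 0.09, adjusted p = 0.00017). MRPL11 (YDL202W) had 77.5, 84.2 and 84.1 RPKM in atp7 puf3 and 130.6, 127.9 and 134.4 RPKM in atp7 libraries, a change of -0.64 (SE 0.06, adjusted p = 4.6e-06). The 3 libraries of each genotype differed by at most 7 RPKM for these genes. MRPL17, RML2 and IMG2 fell by 0.68, 0.64 and 0.64 on the log2 scale. RTC6, which encodes a small protein of the same subunit, went the other way. It had 187.6, 184.0 and 196.4 RPKM in atp7 puf3 libraries and 166.4, 161.0 and 151.9 RPKM in atp7 libraries (log2 change 0.27, SE 0.06, adjusted p = 0.015). This call was lost without atp7 puf3 library 1 or 3 or atp7 library 2 or 3, and without rescaling, where the adjusted p ran from 0.051 to 0.108.

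Of the 32 genes of the small mitochondrial ribosomal subunit, 24 fell (75%, against 2.06% of all genes tested) and none rose. Their median was -0.31 and their range -0.69 to 0.12. RSM25 (YIL093C, chromosome IX, 187990 to 188784) had 73.5, 72.2 and 77.0 RPKM in atp7 puf3, against 115.8, 115.2 and 118.5 RPKM in atp7 libraries (log2 change -0.62, SE 0.04, adjusted p = 2.0e-07). MRP13 (YGR084C) had 64.3, 64.7 and 67.3 RPKM in atp7 puf3 and 106.1, 108.6 and 110.4 RPKM in atp7 libraries (-0.69, SE 0.05, adjusted p = 8.0e-07). In both cases the 3 replicates of a genotype differed by a few RPKM while the genotypes differed by about 40. FYV4, which encodes another protein of this subunit but was not on the list, had 65.8, 67.2 and 71.8 RPKM in atp7 puf3 and 114.1, 127.6 and 121.0 RPKM in atp7 libraries (-0.79, SE 0.10, adjusted p = 0.00018). The smallest called falls on the list included MRP51 at -0.22 and RSM10 at -0.24. MRP51 lost its call without rescaling, without any atp7 puf3 library and without atp7 library 2 or 3 (adjusted p up to 0.121). RSM10 lost its call without atp7 puf3 library 1 or 2 or atp7 library 2 or 3 (up to 0.154).

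The factors that work with this ribosome fell as well, 15 of 22 (68.2%, against 2.06% of all genes tested), and none rose. Their median was -0.42. MEF1 (YLR069C, chromosome XII, 271630 to 273915), the mitochondrial elongation factor G, had 86.2, 89.0 and 88.6 RPKM in atp7 puf3, against 140.4, 153.2 and 147.5 RPKM in atp7 libraries (log2 change -0.71, SE 0.06, adjusted p = 2.1e-06). The asparaginyl-tRNA synthetase gene SLM5 had 25.4, 23.8 and 26.5 RPKM in atp7 puf3 and 39.5, 44.8 and 44.8 RPKM in atp7 libraries (-0.72, SE 0.10, adjusted p = 0.00040). The seryl-tRNA synthetase gene DIA4 had 28.9, 27.8 and 28.6 RPKM in atp7 puf3 and 45.4, 44.7 and 50.4 RPKM in atp7 libraries (-0.67, SE 0.11, adjusted p = 0.0016). The synthetases for leucine (NAM2, -0.56), aspartate (MSD1, -0.53) and tyrosine (MSY1, -0.52), the recycling factor RRF1 (-0.46) and the release factor MRF1 (-0.33) also fell. The elongation factor Tu gene TUF1 was at 0.05 (SE 0.04, adjusted p = 1.00).

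Taken over the 3 lists, 68 of 98 genes fell (69.4%), 1 rose and 29 were not called, and 89 had a log2 change below 0. The 98 mRNAs summed to 10480, 10510 and 10900 RPKM in the atp7 puf3 libraries and to 13050, 13400 and 13320 RPKM in the atp7 libraries. The mean sum was thus 19.8% lower in atp7 puf3 cells. In puf3 cells the same sum was 9772, 9875 and 9677 RPKM, and in WT cells 8158, 9145 and 9261 RPKM. The mean of atp7 cells was 150% of the WT mean, that of atp7 puf3 cells 120% and that of puf3 cells 110%. The WT libraries were low in mating type a and haploid mRNAs, as given below, and its part in these shares was not tested. The number of these genes called lower was 56 to 79 under the other settings tried.

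**Figure D2:**
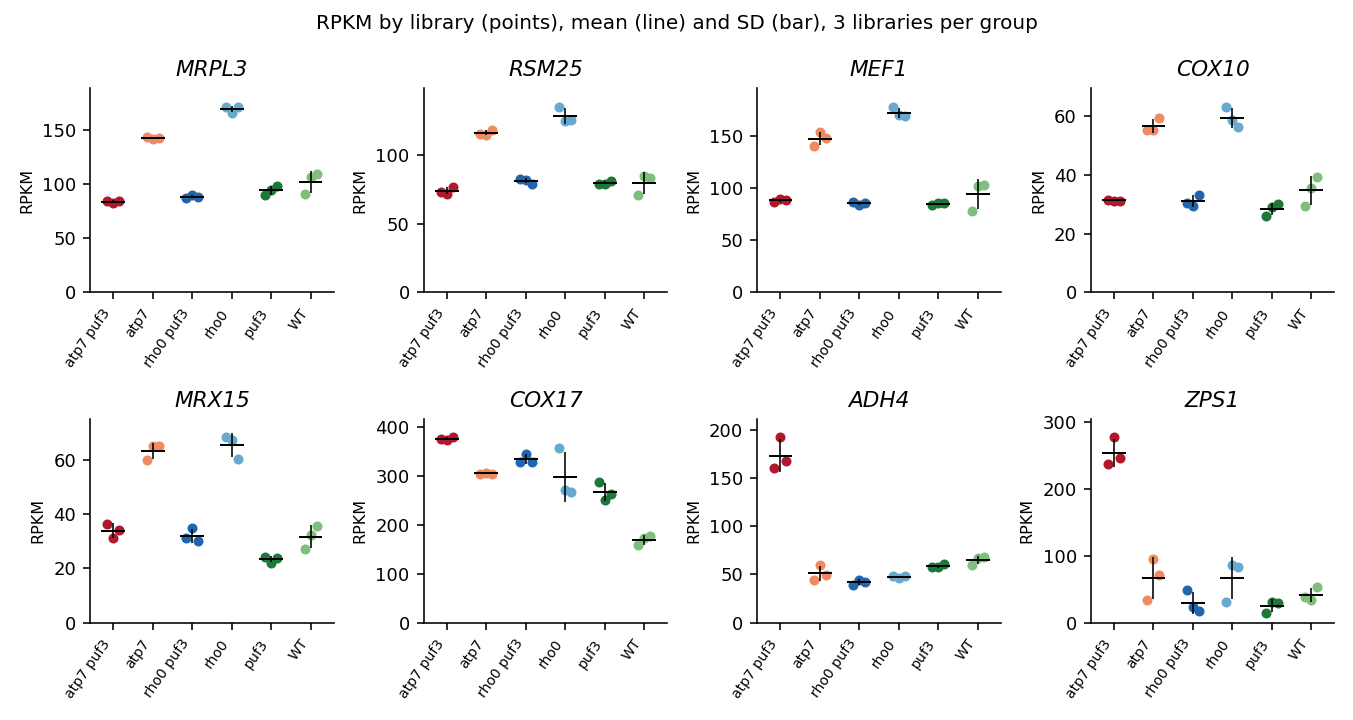
RPKM of 8 genes in the 18 libraries of the set, 3 per group (points), with the group mean (horizontal line) and SD (vertical bar). For MRPL3, RSM25, MEF1, COX10 and MRX15 the atp7 puf3 libraries lie below the atp7 libraries, for COX17, ADH4 and ZPS1 above them.

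Assembly of the respiratory chain was the second group with many falls, 11 of 37 genes against 1 that rose. The falls were 29.7% of the list, against 2.06% of all genes tested, and the median was -0.21. COX10 (YPL172C, chromosome XVI, 224353 to 225741), which makes the heme A precursor of cytochrome oxidase, had 31.5, 31.2 and 31.1 RPKM in atp7 puf3, against 55.3, 55.3 and 59.4 RPKM in atp7 libraries. Its fall of 0.81 (SE 0.07, adjusted p = 3.3e-06) was the largest on the list, and its 3 atp7 puf3 libraries were nearly identical. BCS1, which inserts the iron-sulphur protein into complex III, averaged 59.0 ± 0.806 RPKM in atp7 puf3 and 85.8 ± 2.22 RPKM in atp7 cells (SD, n = 3 each; log2 change -0.50, adjusted p = 6.2e-06 by limma). MSS51, the activator of COX1 translation, had 139.9, 141.7 and 141.2 RPKM in atp7 puf3 and 175.5, 173.4 and 170.9 RPKM in atp7 libraries (-0.27, SE 0.04, adjusted p = 0.00071). The lyase gene CYT2, which attaches heme to cytochrome c1, had 109.3, 106.3 and 112.7 RPKM in atp7 puf3 and 145.5, 159.7 and 159.8 RPKM in atp7 libraries (-0.47, SE 0.09, adjusted p = 0.0073). COX14, MSS2, COX23, COX11, CBP3, SHY1 and CBP6 made up the rest of those that fell, at -0.45 to -0.27. CBP6 kept its call in only 1 of the 6 fits without 1 library, that without atp7 puf3 library 3. SHY1 lost its call without rescaling and without atp7 puf3 library 2 or any atp7 library (adjusted p up to 0.145), and CBP3 lost it without rescaling (0.0594).

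COX17 stood against this list. It encodes the copper chaperone of cytochrome oxidase, and had 376.3, 374.0 and 379.2 RPKM in atp7 puf3, against 304.7, 306.0 and 305.2 RPKM in atp7 libraries. The 2 groups were tight and separate, and the log2 change was 0.33 (SE 0.07, adjusted p = 0.018). The call was lost when any 1 of the 6 libraries was left out of the fit over the set (adjusted p = 0.061 to 0.082) and without rescaling (0.131), whereas with only the 6 libraries in the fit the adjusted p was 0.00011.

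Import and quality control of mitochondrial proteins changed in few members. Of 32 import genes 3 fell (9.38%, against 2.06% of all genes tested) and none rose (median -0.07). TIM9, a chaperone of the intermembrane space, had 415.5, 417.0 and 409.2 RPKM in atp7 puf3 and 556.3, 562.9 and 575.1 RPKM in atp7 libraries (log2 change -0.42, SE 0.07, adjusted p = 0.0012). TIM23, the channel of the inner membrane translocase, averaged 249 ± 2.80 RPKM in atp7 puf3 and 324.9 ± 5.58 RPKM in atp7 cells (SD, n = 3 each; -0.35, adjusted p = 0.0032 by limma). The receptor gene TOM70 was the smallest called fall of all, at -0.16 (SE 0.04, adjusted p = 0.037), and lost its call without any 1 of the 6 libraries (adjusted p = 0.070 to 0.198). With the 6 libraries alone, 7 import genes were called lower and 1 higher, where 4.7% of all genes tested in that fit were lower and 3.54% higher. Among 15 chaperones and proteases only the m-AAA protease gene AFG3 fell (6.67% of the list), by 0.33 (SE 0.04, adjusted p = 0.00021). The other 14 were not called, HSP10 among them at 0.27 (SE 0.08, adjusted p = 0.13). With the 6 libraries alone this list had 4 genes higher and 6 lower, where 3.54% of all genes tested were higher and 4.7% lower.

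Beyond the lists, the 2 largest falls with a known place in mitochondria were FYV4, given above, and MRX15 (YNR040W, chromosome XIV, 699690 to 700460), which encodes an inner membrane receptor of the mitochondrial ribosome. MRX15 had 36.5, 31.1 and 34.1 RPKM in atp7 puf3, against 60.03, 65.0 and 65.2 RPKM in atp7 libraries, and its fall of 0.86 (SE 0.08, adjusted p = 4.6e-06) was the largest besides that of PUF3. The following genes were picked out after their values were seen. No list of mitochondrial RNA processing and decay was counted, and its genes are given singly. The RNA helicase gene MSS116 had 134.3, 133.2 and 140.4 RPKM in atp7 puf3 and 199.3, 202.1 and 201.9 RPKM in atp7 libraries (-0.53, SE 0.05, adjusted p = 4.7e-06). SUV3 and DSS1, the helicase and nuclease of the mitochondrial RNA degradosome, fell by 0.58 and 0.52, and the splicing factor gene MRS1 fell by 0.56. The ribosome receptor genes MDM38 and MBA1 fell by 0.56 and 0.25, the tRNA modification gene MTO1 by 0.60, and the fusion GTPase gene MGM1 by 0.27. MBA1 lost its call without atp7 library 2 (adjusted p = 0.0533). MSS1, another tRNA modification gene, was at -0.31 and lost its call without any 1 of the 6 libraries (adjusted p up to 0.228). Not all of the fallen genes serve mitochondria. The plasma membrane biotin transporter gene VHT1 averaged 33.3 ± 1.26 RPKM in atp7 puf3 and 48.7 ± 2.34 RPKM in atp7 cells (SD, n = 3 each; -0.51, adjusted p = 2.3e-05 by limma), and the peptide transporter gene PTR2 was at -0.36 (adjusted p = 0.012) but lost its call without atp7 puf3 library 2 or 3 or atp7 library 2 or 3 (up to 0.0742). Of the 139, 7 have no locus tag in RefSeq and thus no position to check, and at least 4 of the rest overlap another annotated gene, namely MTO1 with YGL235W and MRP4 with YHL005C. Of the 7, YGR219W, YKL169C, YJR114W, YEL020C-B, YEL050W-A and YIR020C-B are numbered beside the fallen genes MRPL9, MRPL38, RSM7, TIM9, RML2 and MRS1. These pairs may count the same reads. YGR219W was at -0.51 and MRPL9 at -0.50, for example. The 139 may thus hold fewer independent transcripts. The use of strand in counting is not given in the sources used here, so the reads of such pairs cannot be told apart.

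The structural subunits of the respiratory machinery, unlike the genes above, held no call in the fit over the set. This covers 13 ATP synthase subunits besides ATP7, 9 complex III subunits, 10 nuclear complex IV subunits and 15 genes of the TCA cycle and complex II. Their medians were 0.14, 0.08, 0.05 and 0.06 on the log2 scale. ATP2, the catalytic subunit of the ATP synthase, averaged 627.4 ± 18.1 RPKM in atp7 puf3 and 562.5 ± 5.21 RPKM in atp7 cells (SD, n = 3 each; 0.19, adjusted p = 0.062 by limma). With only the 6 libraries in the fit, 7 of the 13 ATP synthase genes were called higher, ATP2, ATP1, ATP5, ATP14 and ATP3 among them, and none lower, where 3.54% of all genes tested in that fit were higher. In that fit 2 complex III, 1 complex IV and 3 TCA cycle genes were higher and none lower. Of 9 ATP synthase assembly genes, FMC1 fell (11.1%, against 2.06% of all genes tested), by 0.31 (SE 0.06, adjusted p = 0.012). Its call was lost without atp7 puf3 library 1, atp7 library 1 or atp7 library 2, and without rescaling (adjusted p = 0.057 to 0.081). The ADP/ATP carrier PET9 and the ATPase inhibitor INH1 were at 0.16 (SE 0.05) and 0.18 (SE 0.21) and were not called over the set, whereas with the 6 libraries alone both were called higher (adjusted p = 0.0373 and 0.0119 by limma).

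**Figure D3:**
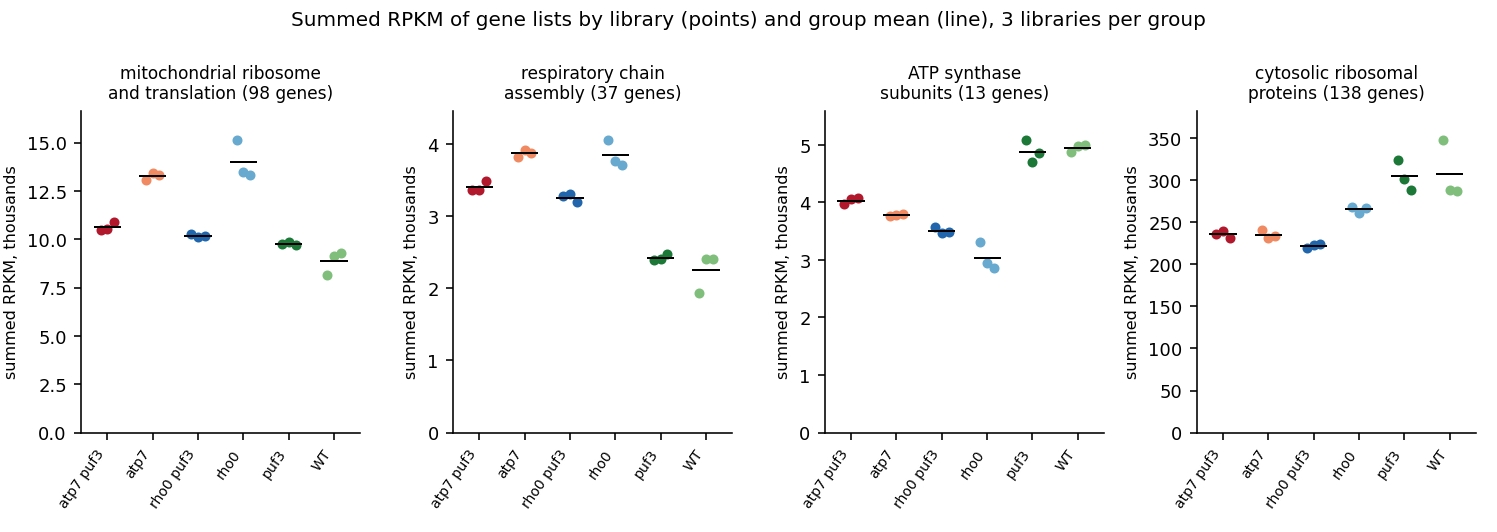
Summed RPKM (axis in units of 1000) of 4 gene lists in each of the 18 libraries (points) with group means (lines). For mitochondrial ribosome and translation genes the atp7 puf3 libraries reach 10480 to 10900 RPKM and the atp7 libraries 13050 to 13400 RPKM; the cytosolic ribosomal protein sums of these 2 groups overlap.

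Outside mitochondria, most lists held no call in the fit over the set. None of 138 cytosolic ribosomal protein genes (median 0.03), 53 ribosome biogenesis genes (-0.07), 16 glycolysis genes (0.05), 22 ergosterol genes (0.03), 8 retrograde targets (-0.01) or 17 genes of gluconeogenesis and acetate use (-0.02) was called. The same held for 30 stress genes (0.14), 11 drug resistance genes (0.07), 16 phosphate regulon genes (0.21) and 21 amino acid genes under Gcn4 (0.11). With only the 6 libraries in the fit, however, 5 of 11 drug resistance, 7 of 16 phosphate and 7 of 21 Gcn4 genes were called higher and none lower. Of all genes tested in that fit, 3.54% were higher and 4.7% lower. In that fit 5 stress genes were higher and 1 lower, 6 ribosome biogenesis genes were lower and none higher, 1 retrograde target was higher and 1 lower, and 1 glycolysis gene was higher. It also had 1 cytosolic ribosomal protein gene and 1 gene of gluconeogenesis and acetate use lower, and no ergosterol gene called. The drug efflux pump PDR5 averaged 511 ± 10.9 RPKM in atp7 puf3 and 478.1 ± 6.78 RPKM in atp7 cells (SD, n = 3 each), with adjusted p = 0.31 over the set and 0.026 over the 6 libraries by limma. The stress gene HSP12 averaged 832.6 ± 15.0 RPKM in atp7 puf3 and 1248 ± 122 RPKM in atp7 cells (SD, n = 3 each; -0.55), with adjusted p = 1.00 over the set and 0.00090 over the 6 libraries by limma. The 5 other members of the Puf family, which bind RNA through the same kind of repeats, were not called in either fit, and neither were 17 deadenylation and decapping genes. The Puf family changes ran from -0.09 for PUF6 to 0.12 for JSN1.

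The rises of ZPS1 and ADH4, genes known to respond to low zinc, were the largest of those called. ADH4 (YGL256W, chromosome VII, 15159 to 16307), an alcohol dehydrogenase gene induced in zinc-limited cells, had 160.0, 192.2 and 167.2 RPKM in atp7 puf3, against 44.6, 59.5 and 49.6 RPKM in atp7 libraries. Every atp7 puf3 library was at more than double the highest atp7 library, and the log2 change was 1.77 (SE 0.09, adjusted p = 2.0e-08). ZPS1 (YOL154W), a cell surface protein gene of the same response, had 238.1, 277.7 and 247.0 RPKM in atp7 puf3, against 33.6, 95.8 and 72.2 RPKM in atp7 libraries (2.05, SE 0.46, adjusted p = 0.023). The atp7 libraries spread widely for this gene but stayed below the atp7 puf3 libraries, and the call was lost in each fit without 1 library except that without atp7 library 2 (adjusted p = 0.059 to 0.151). ZAP1, the activator of the zinc response, had 39.6, 44.9 and 39.2 RPKM in atp7 puf3 and 26.2, 31.3 and 30.1 RPKM in atp7 libraries (0.51, SE 0.11, adjusted p = 0.016). The vacuolar zinc exporter gene ZRT3 had 130.7, 132.8 and 127.2 RPKM in atp7 puf3 and 94.3, 109.4 and 107.4 RPKM in atp7 libraries (0.36, SE 0.08, adjusted p = 0.020). ZAP1 lost its call without atp7 puf3 library 2 or atp7 library 1 (0.118 and 0.107). ZRT3 lost its call without atp7 puf3 library 1 or 2 or atp7 library 1 (0.087, 0.118 and 0.141).

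These 4 were the called members of a list of 15 zinc-responsive genes that was written after ZPS1 and ADH4 had been seen at the top, so the count carries no weight of its own. The list's median was 0.02. The plasma membrane zinc transporter gene ZRT1 had 1042, 1090 and 996 RPKM in atp7 puf3 and 488, 741 and 646 RPKM in atp7 libraries, without overlap, and was not called over the set (0.79 on the log2 scale, SE 0.24, adjusted p = 0.17). The remaining members, such as the abundant alcohol dehydrogenase ADH1 at -0.08, were not called over the set. With the 6 libraries alone 7 of the 15 were called higher and none lower, ZRT1 among them (adjusted p = 0.00844). Of all genes tested in that fit, 3.54% were higher.

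The other 8 features that rose were mixed. The nitrogen repressor gene DAL80 (YKR034W) and the feature YKR033C both rose by 0.49, the iron-starvation mRNA-binding protein gene TIS11 by 0.65 and the NAD synthesis gene BNA1 by 0.24. TIS11 averaged 13.1 ± 0.916 RPKM in atp7 puf3 and 8.19 ± 1.12 RPKM in atp7 cells (SD, n = 3 each). It was the only one of 24 iron regulon genes called over the set, and its call was lost without any 1 of the 6 libraries. With the 6 libraries alone 5 of the 24 were called higher and none lower, where 3.54% of all genes tested in that fit were higher. YKR033C has no position in RefSeq, is numbered beside DAL80 and may count the same reads, and DAL80 lost its call without any 1 of the 6 libraries (adjusted p up to 0.211). BNA1 lost its call without atp7 puf3 library 2 or 3 or atp7 library 3, and without rescaling (up to 0.182). The Ty1 retrotransposon feature YMR045C, one of many near-identical copies and therefore of uncertain value, rose by 0.25 and lost its call in 5 of the 6 fits without 1 library. The leucine tRNA feature tL(CAA)N had 1.89, 3.14 and 2.10 RPKM in atp7 puf3 and was listed at 0 in the other 15 libraries of the set, a log2 change of 1.71. It is 1 of several near-identical tRNA genes, passed the filter only through the atp7 puf3 libraries and was not tested once any of these was left out, so its value is uncertain. COX17 and RTC6, given above, complete the count. Of all 12 rises, 2 kept their call in each of the 6 fits without 1 library compared, ADH4 and YKR033C.

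Transcripts of mitochondrial DNA were scarce in these poly(A)-selected libraries. The 8 protein genes of that genome summed to 32.8, 36.4 and 41.7 RPKM in atp7 puf3 and 37.1, 34.0 and 24.5 RPKM in atp7 libraries, which overlap, and were listed at 0 in all 6 libraries labelled rho0 or rho0 puf3. Of the 4 that passed the filter, COX3 fell, with 2.20, 2.22 and 1.598 RPKM in atp7 puf3 against 5.29, 3.79 and 4.01 RPKM in atp7 libraries (log2 change -0.80, SE 0.17, adjusted p = 0.013). This call ended at a pseudocount of 0.1 (adjusted p = 0.323), without atp7 puf3 library 3 (0.095) and without atp7 library 1 (0.104). The feature Q0010, likewise listed at 0 in those 6 libraries, had 7.41, 7.09 and 6.47 RPKM in atp7 puf3 and 13.99, 15.5 and 11.1 RPKM in atp7 libraries (-0.82, SE 0.15, adjusted p = 0.0034), but not at a pseudocount of 0.1 (0.666). The libraries at 0 enter the fit over the set but add no spread for COX3 and Q0010. With only the atp7 puf3 and atp7 libraries in the fit, the adjusted p by limma was 0.0285 for COX3 and 0.00521 for Q0010. OLI1 and COX1 were at 0.46 and 0.42 and were not called.

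The change in the atp7 background was next set beside that in rho0 and in wild type. The 3 pairs of groups share no library, though all enter the same fit. Of the 139 genes that fell upon PUF3 deletion in atp7 cells, 135 (97.1%) also fell in rho0 cells and none rose there. PUF3 deletion in rho0 lowered 1058 genes besides PUF3, 15.5% of genes tested with PUF3 counted, so that the shared 135 are 12.8% of that list. In wild type 12 of the 139 (8.63%) fell and 27 (19.4%) rose, where 465 genes fell in all (6.83%) and 601 rose (8.82%). The WT libraries were low in mating type a and haploid mRNAs, as given below. The part of these low levels in this and the following comparisons with wild type was not tested. The median change of the 139 genes was -0.66 in rho0 and 0.03 in wild type. Across 6811 genes, Pearson's r between the changes was 0.16 for atp7 and rho0 and -0.11 for atp7 and wild type. Within the 98 mitochondrial ribosome and translation genes it was 0.87 for atp7 and rho0 and 0.61 for atp7 and wild type. These are descriptions across genes, which are not independent replicates and within a pair of groups share the same 6 libraries.

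**Figure D4:**
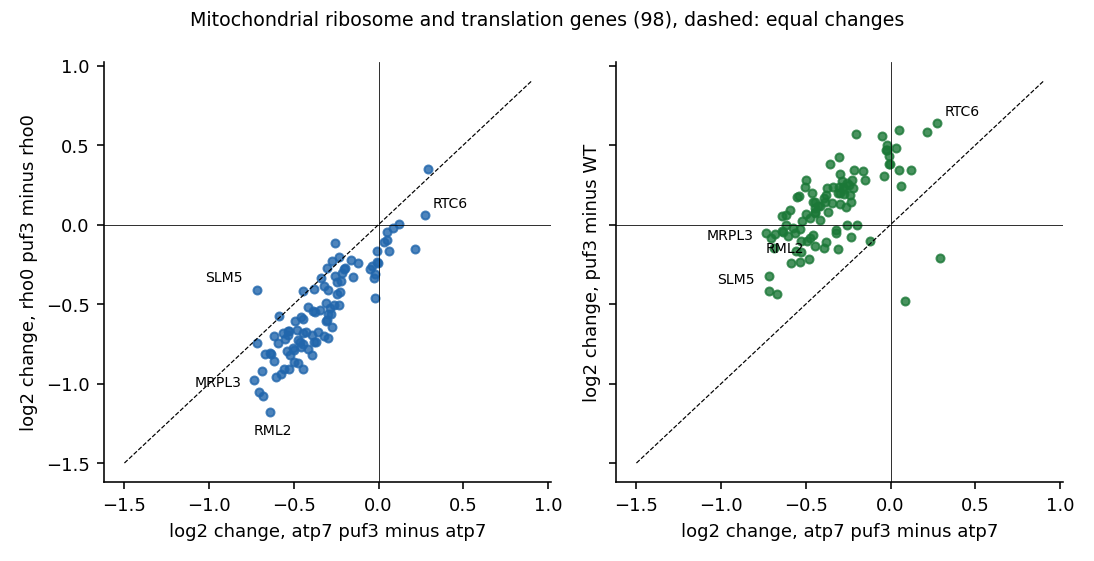
Log2 change upon PUF3 deletion in rho0 (left) and in wild type (right) against the change in the atp7 deletion for the 98 mitochondrial ribosome and translation genes (points); the dashed line marks equal changes. Most points lie below the line for rho0 and above it for wild type, and r is 0.87 and 0.61.

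The following single genes were picked out as examples. The limit just given for the WT libraries holds for their changes in wild type too. MRPL3 changed by -0.73 in the atp7 deletion, -0.98 in rho0 and -0.06 in wild type. Its levels were 83.9 ± 1.30 RPKM in atp7 puf3, 88.4 ± 1.33 in rho0 puf3 and 94.4 ± 4.42 in puf3 cells, and 143.1 ± 0.765 in atp7, 169.7 ± 3.10 in rho0 and 102.1 ± 10.1 in WT cells (SD, n = 3 each). The 3 strains without PUF3 thus differed by about 10 RPKM, and the 3 strains with it by over 60. COX10 had 31.2 ± 0.199 RPKM in atp7 puf3, 31.1 ± 1.94 in rho0 puf3 and 28.4 ± 2.08 in puf3 cells, and 56.7 ± 2.36 in atp7, 59.4 ± 3.42 in rho0 and 34.7 ± 4.90 in WT cells. MSS116 changed by -0.53 in the atp7 deletion, -1.07 in rho0 and 0.29 in wild type. The order of backgrounds was not the same for all fallen genes, and SLM5 changed by -0.72 in the atp7 deletion, -0.41 in rho0 and -0.42 in wild type. COX17 had 376.5 ± 2.61 RPKM in atp7 puf3 and 305.3 ± 0.652 in atp7 cells, and 268 ± 18.9 in puf3 and 169 ± 9.49 in WT cells (SD, n = 3 each). Its change was 0.33 in the atp7 deletion, 0.13 in rho0 and 0.71 in wild type. By limma's test of the difference, the change in atp7 was lower by 0.38 than in wild type (adjusted p = 0.030). That call was lost in 10 of 18 fits without 1 library (adjusted p up to 0.0757). The difference from rho0 was 0.20 and was not called (adjusted p = 0.225).

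Tested directly as an interaction, the change upon PUF3 deletion in atp7 cells differed from that in WT cells for 507 genes (7.44%), 170 with a higher (2.5%) and 337 with a lower change in atp7 (4.95%). Of the 98 mitochondrial ribosome and translation genes, 77 had a lower change in atp7 and none a higher one, with a median difference of -0.50. The part of the low mating type a and haploid mRNA of the WT libraries, given below, in these differences was not tested. MRPL3 differed by -0.68 (adjusted p = 8.5e-06), RSM25 by -0.67 (adjusted p = 2.3e-06) and MSS116 by -0.83 (adjusted p = 2.4e-06). The 77 became 72 to 83 when 1 of the 18 libraries was left out, although the count over all genes became 1787 without WT library 1.

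Against rho0, the change in atp7 differed for 553 genes (8.12%), 242 with a higher (3.55%) and 311 with a lower change in atp7 (4.57%). Here 31 of the 98 genes had a higher, that is less negative, change in atp7 and none a lower one, with a median difference of 0.20. With 1 library left out the 31 ranged from 18 to 41. MSS116 differed by 0.54 (adjusted p = 0.00041). MEF1 differed by 0.35 (adjusted p = 0.019, but 0.0528 without atp7 puf3 library 2 and 0.0532 without atp7 library 1). MRPL3 differed by 0.25 (adjusted p = 0.036), a call lost in 10 of 18 fits without 1 library, where the adjusted p reached 0.0922. For RSM25 the difference was 0.08 (adjusted p = 0.38) and for MRP20 it was 0.02 (adjusted p = 0.94).

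**Figure D5:**
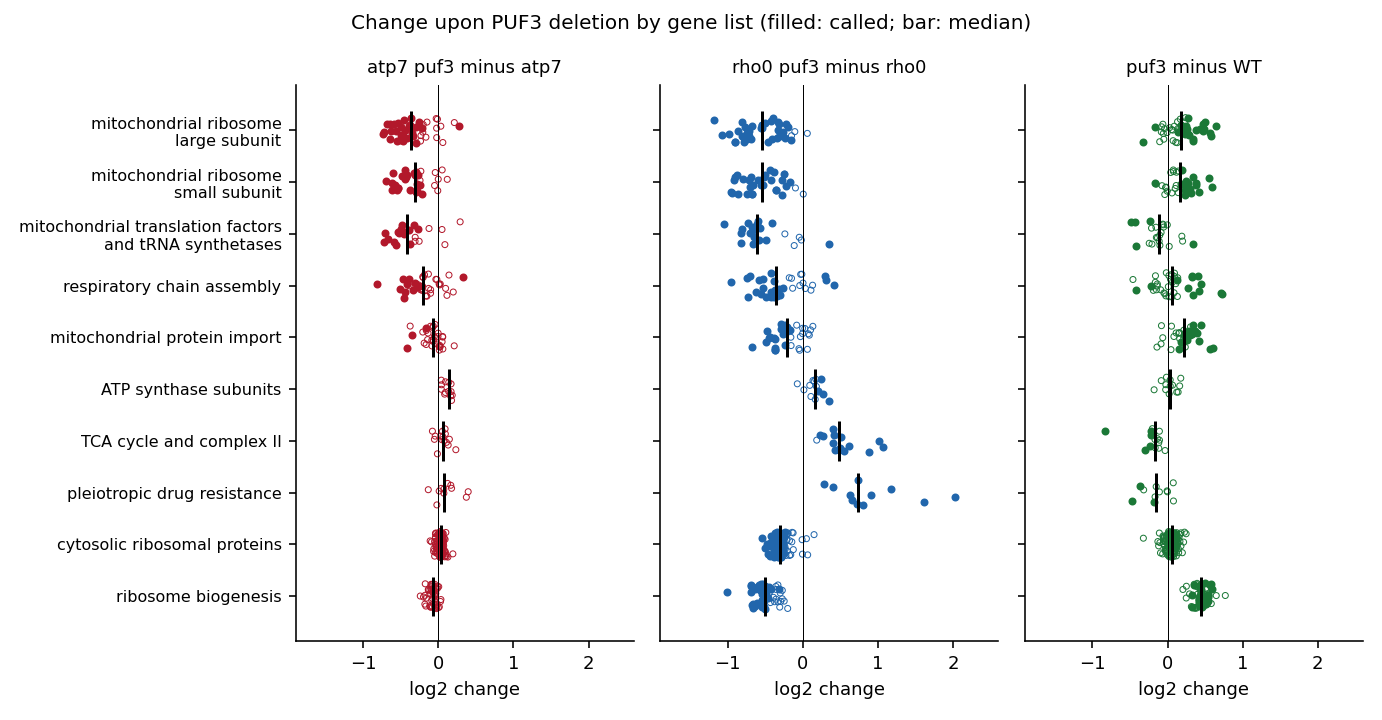
Log2 change upon PUF3 deletion of the genes of 10 lists (points, filled where called) in the atp7 deletion (left), rho0 (middle) and wild type (right), with list medians (bars). The atp7 panel has filled points mainly in the first 4 rows, and none for the cytosolic ribosomal proteins, ribosome biogenesis or drug resistance, which have filled points in rho0.

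ADH4 and ZPS1 were not called in either of the other backgrounds. ADH4 changed by -0.23 in rho0 and -0.09 in wild type, and its change in atp7 was higher by 2.00 than in rho0 (adjusted p = 5.0e-07) and by 1.86 than in wild type (adjusted p = 9.7e-07). The 15 libraries other than atp7 puf3 had 39.1 to 68.0 RPKM. ZPS1 changed by -1.20 in rho0 and -0.73 in wild type, with differences of 3.25 (adjusted p = 0.0092) and 2.78 (adjusted p = 0.015). ZAP1 differed by 0.87 from wild type (adjusted p = 0.0022). In wild type it fell upon PUF3 deletion, by 0.36 (adjusted p = 0.038 by limma). From rho0 it differed by 0.61 (adjusted p = 0.028), which was lost in 8 of 18 fits without 1 library (adjusted p up to 0.0757). ZRT3 differed by 0.51 from wild type (adjusted p = 0.010), and its difference from rho0 was 0.31 (adjusted p = 0.095). Of the 15 zinc-responsive genes, 2 were called higher and 2 lower upon PUF3 deletion in wild type, ZAP1 among the lower. In rho0 1 was called higher and 6 lower. Over all genes tested, 8.82% were higher and 6.83% lower in wild type, and 14.9% and 15.5% in rho0. By the interaction test 4 of the 15 had a higher and 1 a lower change in atp7 than in wild type.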

How the data were processed

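Poly(A) RNA of 18 libraries (6 genotypes, 3 biological replicates each) was used, and 68 further libraries of the series were not used here. The deposited values are RPKM, which the authors computed per gene for 7126 features in each library. Per the submitters' processing notes, the genome build was R64 and the tools were STAR 2.6.1a, edgeR 3.28.1, CASAVA 1.9 and featureCounts. The sources used here do not state filters, the use of strand or the handling of multiply mapped reads. RPKM multiplied by the annotated length were whole multiples of 1 read (within 0.05) for 95.2% to 95.7% of genes, from which depth was recovered (9376017 to 14318919 reads per library). Of the identifiers, 6048 matched a RefSeq locus tag, and 1 list member each (TSF1; ARG5,6) had no match.

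Libraries were rescaled by unweighted trimmed means of log ratios (30% of ratios and 5% of levels trimmed). Genes with at least 1 RPKM in 3 of the 18 libraries were kept, as log2(RPKM + 1), a scale that understates changes of low genes. Printed levels are RPKM as deposited. A model with 1 mean per genotype was fitted with limma 3.58.1 in R 4.3.3 (two-sided moderated test with a variance trend, Benjamini-Hochberg threshold 0.05), checked on simulated data. There 95% of 2-fold and 86% of 1.5-fold changes were recovered, with 7 false among 188 calls. The changed genes were drawn only from those with a mean log2(RPKM + 1) of at least 3. Changes smaller than 1.5-fold were not simulated, so their recovery is not known. The simulated data gave all groups the same spread for a gene, so they cannot check the fit where groups differ in spread. Fold changes are atp7 puf3 minus atp7, and interactions subtract the same change in WT or rho0. A list is described by its counts and median, with no test. Figures were drawn with matplotlib 3.10.9 in Python 3.11.15 (pandas 2.3.3, numpy 2.4.6).

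The genotypes, genes and lists were chosen with earlier results of these data known. Named genes are PUF3 and ATP7, the 15 largest called rises and falls with a symbol, a mean log2 of at least 3 and no overlap, per list the 5 lowest p and any call against the others, the 5 largest on each side of each interaction, and a few genes of interest such as COX17; others are marked in the text.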

Additional observations from a re-analysis of the deposited data

Results flagged for a closer look

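The change upon PUF3 deletion differed by limma's interaction test between the atp7 deletion and WT for 507 genes and between the atp7 deletion and rho0 for 553 genes. No group has more than 3 libraries, so single libraries were not tested for standing apart.

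The genes named here are those with the largest called differences among genes that have a symbol, a mean log2(RPKM + 1) of at least 3 and no overlap between atp7 puf3 and atp7 libraries. Larger differences outside this selection are not listed. For the difference from WT they were, on the log2 scale, ZPS1 at 2.78, IMD2 (guanine nucleotide synthesis) at 2.15, ADH4 at 1.86, BTN2 at 1.81 and GPM2 at 1.31 on the higher side. On the lower side were the a-factor gene MFA1 at -2.42, the pheromone protease BAR1 at -1.83, the a-factor exporter STE6 at -1.82, the cell cycle inhibitor FAR1 at -1.51 and IZH1 at -1.17. Of these genes, only ZPS1 and ADH4 were called between atp7 puf3 and atp7 in the fit over the set. With the 6 libraries alone, the change between them was 0.25 for IMD2, 0.62 for BTN2, 0.14 for GPM2 and -0.18 for IZH1. In that fit IMD2 and BTN2 were called (adjusted p = 0.00277 and 0.0103 by limma), and GPM2 and IZH1 were not (0.126 and 0.0877). The 7 mating type a genes summed to 2168 to 2441 RPKM in atp7 puf3, 2466 to 2602 in atp7, 2187 to 2538 in puf3 and 566 to 830 RPKM in WT libraries. The 11 haploid pheromone pathway genes summed to 712 to 739.5 RPKM in atp7 puf3, 735 to 746.8 in atp7, 801.1 to 802.5 in puf3 and 270.9 to 318.8 RPKM in WT libraries. All 7 and all 11 had a lower change in atp7 than in WT by the interaction test. The part of these low WT levels in the other differences from WT was not tested.

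Under the same selection, the differences from rho0 were ZPS1 at 3.25, the hexose transporter HXT4 at 2.24, ADH4 at 2.00, the zinc transporter ZRT1 at 1.61 and the ammonium transporter MEP2 at 1.39 on the higher side. On the lower side were HSP12 at -2.44, CIS1 at -1.95, the drug transporter PDR15 at -1.65, TKL2 at -1.44 and BDH2 at -1.30. Here too only ZPS1 and ADH4 were called between atp7 puf3 and atp7 over the set. With the 6 libraries alone, the change between them was -0.551 for HSP12, 0.465 for CIS1, 0.373 for PDR15, -0.139 for TKL2 and 0.272 for BDH2. In that fit HSP12 and PDR15 were called (adjusted p = 0.000901 and 0.00389 by limma). CIS1, TKL2 and BDH2 were not (0.0721, 0.443 and 0.0539). With 1 of the 18 libraries left out, the difference from rho0 lost its call in 13 fits for HXT4, in 7 for BDH2 and in 2 for HSP12, without atp7 library 2 or rho0 library 2.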

How the results depend on the processing

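None of the 152 calls between atp7 puf3 and atp7 reversed in direction under any alternative. The count of 152 called genes was 122 to 157 under the others and 549 from a fit of the 6 libraries compared alone, when 313 genes were lower and 236 higher. The 12 higher genes became 7 without rescaling and 4 to 8 with 1 library left out. Of the 152 calls, 114 were kept in each of the 6 fits without 1 library, 112 lower and 2 higher. The difference from rho0 (553 genes) was called for 1189 genes from those 4 groups alone, and for 223 to 1367 with 1 library left out, highest without rho0 library 1. The difference from WT (507 genes) ran from 341 to 1787, highest without WT library 1. The cause was not tested. Between atp7 puf3 and atp7 libraries of the same replicate number, correlations of the residuals were -0.007, -0.048 and -0.001 for the 3 numbers. They were 0.15, -0.067 and 0.172 between puf3 and WT libraries, and 0.034, 0.026 and -0.007 between rho0 puf3 and rho0 libraries. With the replicate number as a block, 147, 515 and 532 genes were called for the change in atp7 and its differences from WT and rho0. The reads recovered and the fit by voom (157 genes) were added after seeing the data, as were the counts within mitochondrial lists. A search for the Puf3 motif was planned but not run, as no genome sequence was used here. Genes near 1 RPKM rest on few reads, and 3 libraries per group limit the precision.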
